A study of Mus musculus with 8 samples.

Results

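Described here are 10 genes of extracellular proteolysis, of the 46078 genes counted by RNA-Seq in BV-2 cells. They are 5 matrix metalloproteinases (Mmp8, Mmp9, Mmp12, Mmp13 and Mmp14), 2 tissue inhibitors of these enzymes (Timp1 and Timp2), the plasminogen activator urokinase (Plau), its receptor (Plaur) and the urokinase inhibitor PAI-2 (Serpinb2). The set was chosen by measured values, since Serpinb2 and Mmp12 had been seen to rise most with garlic extract in these libraries. The levels of the 10 genes in AGE+LPS cells are therefore given as a description, with no test. Tests of Serpinb2 and Mmp12 that use the LPS libraries share them with that choice, so their calls are not independent of it. The comparison of FruArg+LPS with Control shares no library with AGE+LPS against LPS, but its genes were still picked with these data known. Urokinase bound to its receptor at the cell surface cleaves plasminogen to plasmin, a broad protease that degrades fibrin and matrix and can activate latent metalloproteinases, and serpins such as PAI-2 block urokinase. Tissue inhibitors bind the active site of metalloproteinases. Activated microglia and macrophages are known to secrete several of these enzymes, among them Mmp9 and the macrophage elastase Mmp12.

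BV-2 is an immortalized line of mouse microglia, and the 4 groups had 2 libraries each. All cells were kept without serum for 4 hours before exposure. Control cells received none of the agents named below, and the study calls them untreated. LPS cells received 100 ng/mL lipopolysaccharide from an Escherichia coli rough mutant for 20 hours. AGE+LPS cells received aged garlic extract (AGE, 0.5% v/v) from 1 hour before the same LPS exposure, and FruArg+LPS cells received FruArg (a compound of fructose and arginine found in that extract, 3 mM) at the same time point. By the column names, replicate 1 of every group came from lane 3 and replicate 2 from lane 6. The names of replicate 2 also carry a further code that those of replicate 1 lack. Lane thus cannot be told apart from other differences between the replicate numbers. The labels call the replicates biological without naming separate cultures, so p-values measure the spread between these libraries, which may be technical in part.

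Total counts of replicates 1 and 2 were 2707500 and 8995052 in Control, 8720784 and 12069807 in LPS, 6795464 and 6669072 in AGE+LPS, and 4692715 and 5822113 in FruArg+LPS. Levels are TMM-normalised CPM, the counts of a gene scaled to a common library size. A level of 3 counts, taken as the floor of a library, was 0.933 CPM in Control replicate 1, the shallowest library, and 0.276 CPM in LPS replicate 2, the deepest. Counting error is all that floors and counting intervals take in. The quasi-likelihood test of edgeR was run on pairs of groups. A gene was called a DEG if its log2 fold change was 1 or more in either direction and its p, adjusted by Benjamini-Hochberg over all genes tested, was below 0.05. The comparisons share the Control or the LPS libraries, so that their results are not independent of each other. Where taking the replicate number as a block in the fit of a pair of groups changed a call, the blocked value stands beside it. The blocked fit of 4 libraries leaves 1 residual degree of freedom per gene. Its p therefore rests mostly on variance shared over genes and is no measure of a gene's own spread between replicates.

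The libraries had the RNA of macrophage-lineage cells with little of the homeostatic microglial programme. Of 13 markers of microglia and macrophages, 9 had a mean of at least 5 CPM, and Ptprc (CD45) was the most abundant with 468 to 994 CPM. Their summed level lay between 2533 and 4194 CPM per library. The receptor P2ry12 had 6.22 and 9.27 CPM in Control and at most 1.65 CPM in the libraries that received LPS, Cx3cr1 and Fcrls had at most 4.02 CPM, and Tmem119 had at most 1.38 CPM. Defining markers of other cells were at or near 0. All 6 fibroblast markers had at most 3 counts in every library, as did 4 of 5 astrocyte, 3 of 5 neuron, 3 of 5 oligodendrocyte and 4 of 5 keratinocyte markers. The most abundant gene was Col1a1 for fibroblasts, Slc1a3 for astrocytes, Tubb3 for neurons and Krt10 for keratinocytes, and none of these 5 lists summed to more than 5.91 CPM in a library.

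A pair of lists moved with the treatments. The summed level of 5 endothelial markers was 77.8 and 77.6 CPM in Control, 10.2 and 8.92 in LPS, 17.1 and 18.9 in AGE+LPS, and 6.19 and 5.32 in FruArg+LPS. Almost all of it was Kdr, which encodes a receptor of vascular endothelial growth factor, while Cldn5 was at 0 in every library and Tek and Cdh5 had at most 0.374 CPM. The summed level of 7 neutrophil markers was 0 and 0.374 CPM in Control, 1.25 and 1.19 in LPS, 3.71 and 3.03 in AGE+LPS, and 3.21 and 3.61 in FruArg+LPS. In the co-treated libraries most of it was Camp, and Ly6g, S100a9, Elane and Retnlg were at 0 in every library. The part of either list in the results below was not tested. As these are bulk samples, fewer cells with a transcript and less transcript per cell cannot be told apart.

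Plau was the most abundant member in Control cells and fell with LPS. Its level (ENSMUSG00000021822, chromosome 14, 20836660 to 20843385) was 549 and 542 CPM in the Control libraries, 98.7 and 97.3 in LPS, 127 and 104 in AGE+LPS, and 128 and 89.4 in FruArg+LPS. Both Control libraries thus stood far above the other 6, among which LPS lay below AGE+LPS and FruArg+LPS overlapped both. The log2 fold change was -2.44 in LPS against Control (SE 0.20, edgeR adjusted p = 5.4e-05) and -2.30 in FruArg+LPS against Control (SE 0.23, edgeR adjusted p = 4.8e-04). Between FruArg+LPS and LPS it was 0.16 (SE 0.26, edgeR adjusted p = 0.81), and without FruArg+LPS replicate 1 it was -0.12. Within lanes, the log2 ratio of LPS to Control was -2.48 in lane 3 and -2.48 in lane 6.

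The urokinase receptor, unlike Plau, had its highest levels in the co-treated cells. Plaur (ENSMUSG00000046223, chromosome 7, 24462484 to 24475968), the anchor of urokinase on the cell surface, had 34.8 and 25.8 CPM in Control, 61.7 and 34.5 in LPS, 135 and 103 in AGE+LPS, and 190 and 124 in FruArg+LPS. The ranges of Control and LPS overlapped, and all 4 libraries of the co-treatments were above both. Against Control the log2 fold change was 0.71 in LPS (SE 0.31, edgeR adjusted p = 0.11) and 2.41 in FruArg+LPS (SE 0.28, edgeR adjusted p = 8.6e-04), so that Plaur was a DEG of the latter comparison. In LPS against Control it would be a DEG without LPS replicate 2, with a log2 fold change of 1.10. With the replicate block the log2 fold change of LPS against Control was 0.64 (SE 0.18, edgeR adjusted p = 0.0042), below the minimum of 1. LPS exceeded Control 1.77-fold in lane 3 and 1.33-fold in lane 6. In FruArg+LPS against LPS the log2 fold change was 1.72 (SE 0.34, edgeR adjusted p = 0.18), and with the replicate block it was 1.74 (SE 0.18, edgeR adjusted p = 2.0e-11). The edgeR and DESeq2 adjusted p of this comparison lay between 2.0e-11 and 0.21 over all alternatives. Plaur was a DEG there without any 1 library other than LPS replicate 2. Within lanes, FruArg+LPS exceeded LPS 3.09-fold in lane 3 and 3.59-fold in lane 6.

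Serpinb2 (ENSMUSG00000062345, chromosome 1, 107511423 to 107535478), the gene of PAI-2, was nearly silent without garlic compounds. It had 1 and 0 counts in the Control libraries and 2 and 18 counts in LPS, which are 0.250 and 1.65 CPM. In AGE+LPS it had 157 and 108 counts (22.4 and 16.4 CPM), and in FruArg+LPS 14 and 34 counts (3.21 and 6.46 CPM). The AGE+LPS libraries were the highest, the FruArg+LPS libraries lay between them and LPS, and none of these 3 groups overlapped. Against the single count in Control, Serpinb2 was 69.3-fold higher in FruArg+LPS, with a 95% counting interval (exact, by the binomial distribution) of 11.9 to 2795. It passed the filter on low counts only through the FruArg+LPS libraries, so that it had to differ to be tested, and no call is drawn from that test. With the looser filter of 1 count the edgeR adjusted p was 2.3e-05 (range over all alternatives 6.9e-07 to 0.13, highest without Control replicate 2). The fitted log2 fold change of 5.65 (SE 1.18) depends on the prior count, and it lay between 3.84 and 8.05 with 1 library left out.

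In LPS against Control, Serpinb2 did not pass the filter and was not tested. It passed as up-regulated with the looser filter, with the replicate block and all 4 groups in one fit, without LPS replicate 1 and without Control replicate 1. In the last 2 of these fits it was tested only because of LPS replicate 2, so no call is drawn from them. It was tested but not a DEG with all 4 groups in one fit and without Control replicate 2. Its fold there was 14.7, with a counting interval of 2.36 to 610.3, and 18 of the 20 counts in LPS came from replicate 2. Between FruArg+LPS and LPS the log2 fold change was 2.27 (SE 0.84, edgeR adjusted p = 0.33), and with the replicate block it was 2.49 (SE 0.77, edgeR adjusted p = 0.017), over the alternatives with adjusted p between 0.017 and 0.57. With 1 library left out it lay between 1.54 and 4.17, and Serpinb2 was not a DEG in any of these fits. In lane 6 FruArg+LPS exceeded LPS 3.91-fold. As a description, AGE+LPS against LPS had a fitted log2 fold change of 4.23 (SE 0.61) and FruArg+LPS against AGE+LPS one of -1.99 (SE 0.44). Serpinb10, an annotated gene on the same strand that overlaps Serpinb2, had 0 counts in all 8 libraries.

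**Figure D1:**
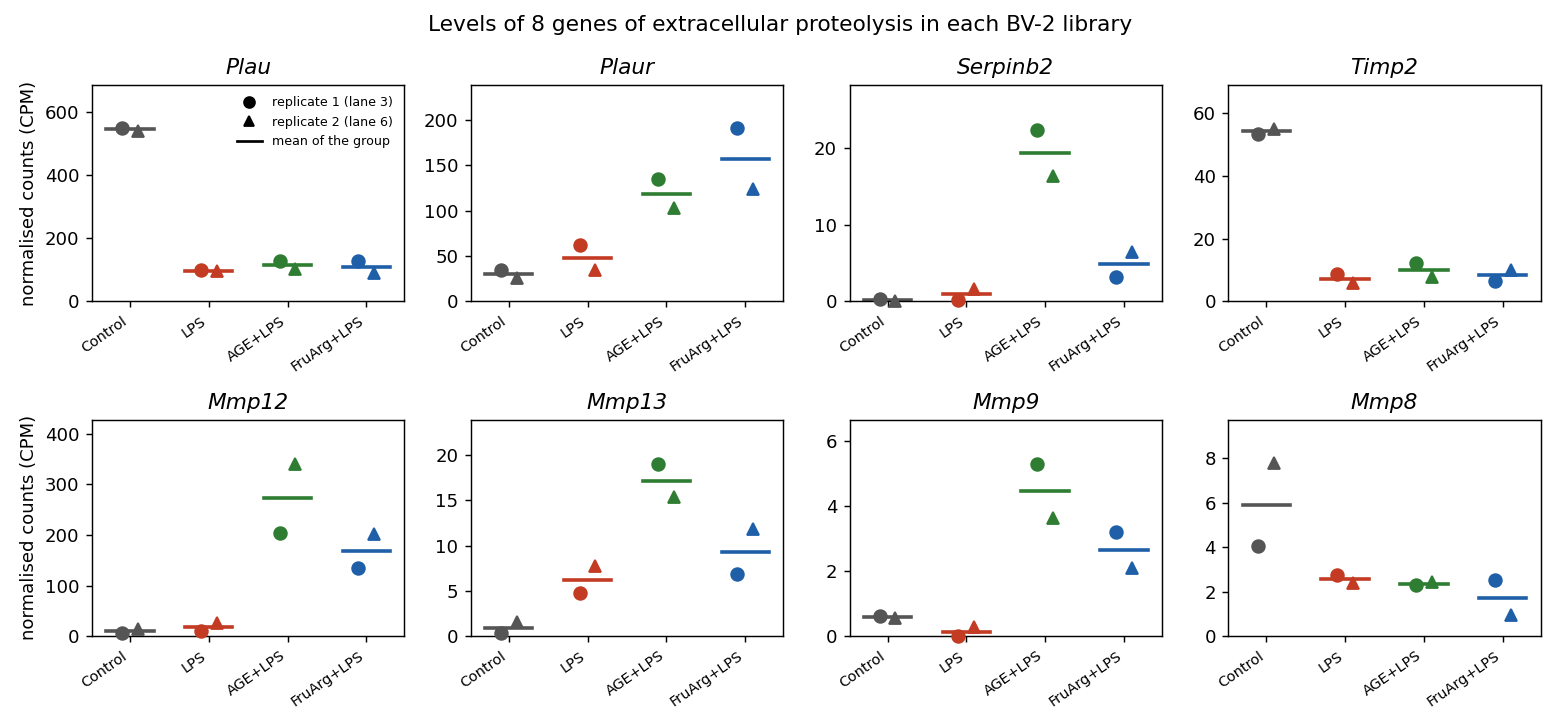
TMM-normalised CPM (vertical axes, linear and from 0) of 8 members in each library, with circles for replicate 1, triangles for replicate 2 and a line at the mean of each group. Plau and Timp2 were high in both Control libraries (549 and 542, 53.5 and 55.1 CPM), whereas Plaur, Serpinb2, Mmp12, Mmp13 and Mmp9 had their highest levels in AGE+LPS or FruArg+LPS.

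Among the metalloproteinases, Mmp12 had the largest levels after the co-treatments. Mmp12 (ENSMUSG00000049723, chromosome 9, 7344381 to 7369499), the macrophage elastase, had 6.84 and 14.8 CPM in Control, 10.5 and 26.0 in LPS, 205 and 340 in AGE+LPS, and 136 and 203 in FruArg+LPS. Control and LPS overlapped, and the 4 co-treated libraries were all above them, with AGE+LPS and FruArg+LPS nearly meeting at 205 and 203 CPM. With LPS alone the log2 fold change against Control was 0.73 (SE 0.46, edgeR adjusted p = 0.27). It was -0.09 without LPS replicate 2, and 1.44 without Control replicate 2 or 1.21 without LPS replicate 1, where Mmp12 was a DEG. With the replicate block the log2 fold change of LPS against Control was 0.79 (SE 0.25, edgeR adjusted p = 0.0092), below the minimum of 1. Within lanes, LPS exceeded Control 1.53-fold in lane 3 and 1.76-fold in lane 6. The log2 fold change of FruArg+LPS against Control was 3.90 (SE 0.36, edgeR adjusted p = 3.4e-04). Mmp12 was thus an up-regulated DEG there, and both FruArg+LPS libraries exceeded both Control libraries. Against LPS the log2 fold change was 3.21 (SE 0.43, edgeR adjusted p = 0.16), and with the replicate block it was 3.30 (SE 0.21, edgeR adjusted p = 5.6e-21). Over the alternatives the adjusted p of this comparison lay between 5.6e-21 and 0.17, and Mmp12 was a DEG with any 1 of the 4 libraries left out (log2 fold changes from 2.69 to 4.01). Within lanes, FruArg+LPS exceeded LPS 12.9-fold in lane 3 and 7.80-fold in lane 6. In AGE+LPS against LPS the fitted log2 fold change was 3.89 (SE 0.48, no test). Mmp1b, which overlaps Mmp12 on the other strand, had 0 counts in every library.

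Collagenase 3 responded to LPS itself. Mmp13 (ENSMUSG00000050578, chromosome 9, 7272514 to 7283331) had 0.311 and 1.59 CPM in Control, or 1 and 17 counts, and 4.75 and 7.72 CPM in LPS. It had 19.0 and 15.3 CPM in AGE+LPS and 6.88 and 11.8 in FruArg+LPS. Control was lowest and AGE+LPS highest, while LPS and FruArg+LPS overlapped. Mmp13 was an up-regulated DEG of LPS against Control (log2 fold change 2.43, SE 0.58, edgeR adjusted p = 0.011). The log2 fold change in FruArg+LPS against Control was 3.02 (SE 0.66), but Mmp13 passed the filter there only through the FruArg+LPS libraries, and no call is drawn from that test. Without Control replicate 2 these log2 fold changes were 4.28 and 4.78, as only the library with 1 count then stood for Control. Between FruArg+LPS and LPS it was 0.58 (SE 0.46, edgeR adjusted p = 0.60).

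The gelatinase Mmp9 (ENSMUSG00000017737, chromosome 2, 164940780 to 164955850) was low throughout. It had 2 and 6 counts in Control, 0 and 3 in LPS, 37 and 24 in AGE+LPS, and 14 and 11 in FruArg+LPS. In CPM the co-treated libraries lay between 2.09 and 5.28, above all Control and LPS libraries, which had at most 0.622. Against the 3 counts in LPS, Mmp9 was 16.4-fold higher in FruArg+LPS (counting interval 4.99 to 84.6, without the spread between replicates). In AGE+LPS it was 28.2-fold higher, as a description. Mmp9 passed the filter in FruArg+LPS against LPS only through the FruArg+LPS libraries, so that it had to differ to be tested. The test of FruArg+LPS against LPS gave an edgeR adjusted p of 0.24, or 0.015 with the replicate block, and between 0.0036 and 0.74 over the alternatives, and no call is drawn from it. Mmp9 did not pass the filter in the comparisons of LPS and of FruArg+LPS with Control.

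Neutrophil collagenase, Mmp8 (ENSMUSG00000005800, chromosome 9, 7558456 to 7568485), was the only metalloproteinase of the 5 whose 2 highest libraries were those of Control. It had 4.04 and 7.77 CPM there, 2.75 and 2.39 in LPS, 2.28 and 2.42 in AGE+LPS, and 2.52 and 0.951 in FruArg+LPS. The log2 fold change of LPS against Control was -1.23 (SE 0.44, edgeR adjusted p = 0.063), and with the replicate block it was -1.22 (SE 0.40, edgeR adjusted p = 0.012), over the alternatives with adjusted p between 0.012 and 0.63. In FruArg+LPS against Control it was -1.80 (SE 0.67, edgeR adjusted p = 0.091), and over the alternatives the adjusted p lay between 0.0012 and 0.71. Mmp8 was a DEG there without FruArg+LPS replicate 1 (-2.66), with scaling by library size (-2.20), with the looser filter (-1.87), and with all 4 groups in one fit, both without (-1.84) and with the replicate block (-1.87). In LPS against Control it would be a DEG without Control replicate 1 (-1.56), with scaling by library size (-1.66), with the looser filter (-1.21) and with the block and all 4 groups in one fit (-1.28). In FruArg+LPS against LPS it was -0.57 (SE 0.72, edgeR adjusted p = 0.74). Mmp14 (ENSMUSG00000000957), a membrane-bound metalloproteinase, had 1 count in LPS replicate 1, 1 count in FruArg+LPS replicate 2 and 0 in the other 6 libraries, and was not tested.

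Of the inhibitors, Timp2 followed the course of Plau. Timp2 (ENSMUSG00000017466, chromosome 11, 118301069 to 118355740) had 53.5 and 55.1 CPM in Control, 8.62 and 5.97 in LPS, 12.1 and 7.88 in AGE+LPS, and 6.65 and 10.1 in FruArg+LPS. The Control libraries stood apart, and the other 3 groups overlapped. Timp2 was a down-regulated DEG of LPS (log2 fold change -2.87, SE 0.27, edgeR adjusted p = 8.6e-05) and of FruArg+LPS (-2.66, SE 0.28, edgeR adjusted p = 5.9e-04) against Control. Between FruArg+LPS and LPS it was 0.21 (SE 0.43, edgeR adjusted p = 0.85), and -0.13 without FruArg+LPS replicate 2. Cep295nl, which overlaps Timp2 on the same strand, had 2 and 7 counts in Control and 0 in the other 6 libraries. Timp1 (ENSMUSG00000001131) had at most 2 counts in a library and 4 in all, so it gave no fold and was not tested. It lies within the annotated span of Syn1, a gene of the other strand that had 8 counts in all.

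**Figure D2:**
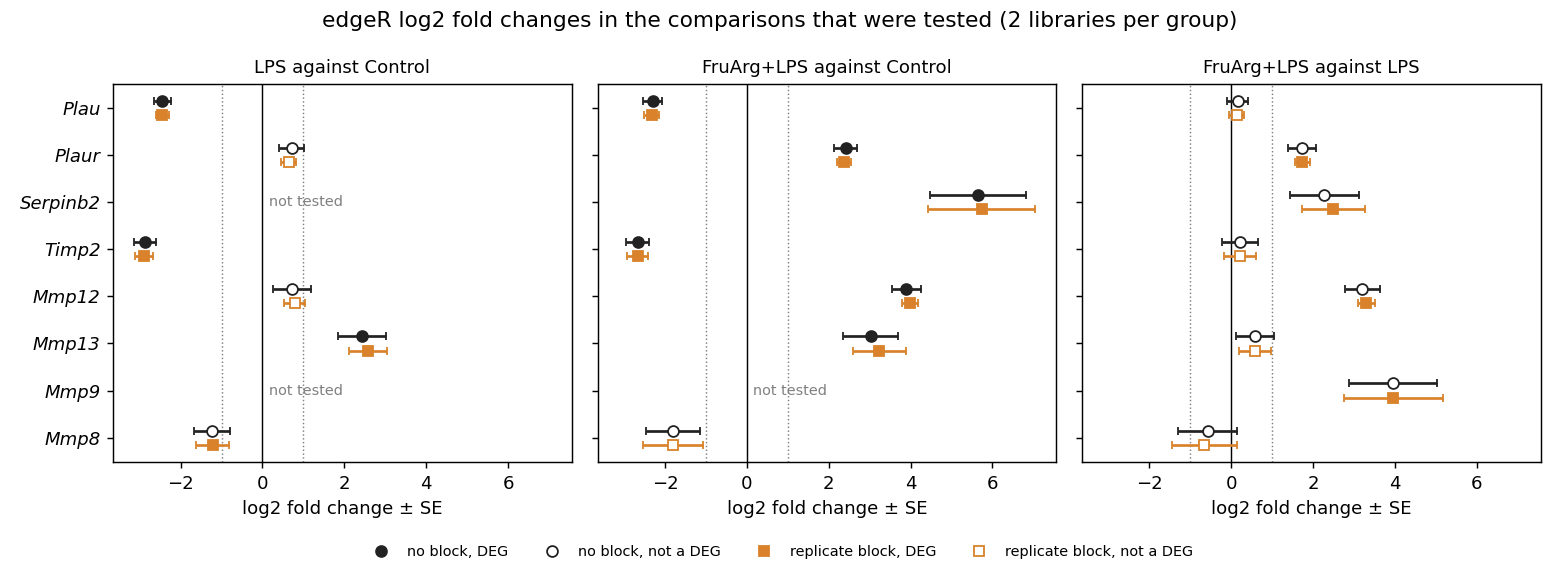
Log2 fold changes with their standard errors (horizontal axes) of 8 members in the comparisons of LPS with Control, FruArg+LPS with Control and FruArg+LPS with LPS, from edgeR without a block (circles) and with the replicate number as a block (squares), where filled symbols passed as DEGs whether or not the filter hung on the high group and dotted lines mark a log2 fold change of 1 in either direction. Plau and Timp2 lie between -2.89 and -2.30 in both comparisons with Control, and in FruArg+LPS against LPS the 4 filled symbols are those of Plaur, Serpinb2, Mmp12 and Mmp9 with the block.

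Of the 10 members, 6 were tested in LPS against Control and 3 were DEGs, 1 up-regulated (Mmp13) and 2 down-regulated (Plau and Timp2), while 22.6% of all 12888 genes tested were DEGs. The block made it 4, with Mmp8, against 25.5% of all genes. Without LPS replicate 1 there were 5 DEGs against 24.1% of all genes, and without Control replicate 1 there were 5 against 19.3%, each time with Serpinb2, which was tested there only because of LPS replicate 2. In FruArg+LPS against Control, 7 members were tested, of which Mmp13 and Serpinb2 passed the filter only through the group where they were high. Of the other 5, 4 were DEGs, with Mmp12 and Plaur up-regulated and Plau and Timp2 down-regulated, while 17.4% of 12038 genes were. Since the filter retains a low gene only where some libraries are high, and since the set was chosen on these data, the shares are a description of a few genes.

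In FruArg+LPS against LPS, 0 of 8 members tested were DEGs with edgeR, as were 0 (0%) of all 12071 genes tested. At an unadjusted p below 0.05 there were 4 members, with Mmp9 among them, and 1543 genes, and DESeq2 called 2 members (Mmp12 and Plaur) and 1.67% of all genes. The fit with the replicate block gave up-regulated Mmp12, Plaur and Serpinb2, or 3 DEGs among the 7 members other than Mmp9, against 6.35% of all genes. The set was chosen by Mmp12 and Serpinb2, so their calls in this comparison are not independent of that choice and are a description. Mmp9, which was tested only because of its high group, was not counted. With 1 library left out, between 1 and 3 members were DEGs without a block: 3 without FruArg+LPS replicate 2 (11.8% of all genes), 2 without its replicate 1 (0.442%), 2 if LPS replicate 1 was left out (1.61%) and 1 if LPS replicate 2 was (0.0408%). The 3 included Mmp9. In these fits the single library of a group was taken to vary like those of the other group.

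Levels of different genes were compared per kilobase of merged exons (CPM per kb, mean ± SD, n = 2). In Control cells Plau led with 231 ± 2.14, followed by Timp2 (13.9 ± 0.294) and Plaur (11.6 ± 2.43), which differed by less than the SD of Plaur. Next came Mmp8 (2.44 ± 1.09) and Mmp12 (1.49 ± 0.776), which differed by less than their spread, then Mmp13 (0.356 ± 0.339), Mmp9 and Serpinb2. In LPS cells the order was Plau (41.4 ± 0.422) and Plaur (18.4 ± 7.37), then Mmp12 (2.52 ± 1.52), Mmp13 (2.33 ± 0.786) and Timp2 (1.87 ± 0.481), which were not separated beyond their spread. The order per length in AGE+LPS cells was Plau (48.9 ± 6.92), Plaur (45.4 ± 8.63) and Mmp12 (37.6 ± 13.2), which were within the spread of each other, and then Serpinb2 (8.25 ± 1.82) and Mmp13 (6.41 ± 0.971). Plaur (60.0 ± 18.1) and Plau (45.9 ± 11.6) were highest in FruArg+LPS cells and differed by less than the SD of Plaur. Mmp12 (23.4 ± 6.56) followed, and Serpinb2 had 2.06 ± 0.980. The ratio of these levels thus shifted from Plau far above Plaur in Control to both at similar levels in the co-treated cells. The merged exons of Mmp12 span 7237 bases, so its level per length is understated if mainly a shorter transcript was made.

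The other genes of these systems came from 6 lists with 90 genes found in the count table, members left out. In LPS against Control 45 of them were tested and 22 were DEGs, of which 16 rose and 6 fell (13 and 13 with scaling by library size), while 22.6% of all genes tested were DEGs. The 16 include Batf and Batf2, which passed the filter only through the LPS libraries and had to differ to be tested. No call is drawn from the tests of these genes. Of 16 genes of plasminogen activation, 10 were tested. Anxa2, which with S100a10 binds plasminogen at the cell surface, was up-regulated (log2 fold change 1.46, SE 0.22, edgeR adjusted p = 1.0e-03). Thbd, the thrombin receptor thrombomodulin, was down-regulated (-2.88, SE 0.42, edgeR adjusted p = 8.8e-04), as was the integrin subunit Itgam (-1.08, SE 0.20, edgeR adjusted p = 0.0030), which reached -0.99 without LPS replicate 2. Plasminogen itself (Plg) had 0 counts in every library, and tissue plasminogen activator (Plat) had at most 0.458 CPM.

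Of 18 other matrix metalloproteinases, 3 were tested in LPS against Control and 0 were DEGs with edgeR, DESeq2 or the replicate block, with 1 at an unadjusted p below 0.05. Mmp19 was the most abundant, with 22.6 to 41.1 CPM over the 8 libraries, and Mmp2 had 1.24 to 2.47 CPM. None of the 4 other inhibitors, Timp3, Timp4, Reck and A2m, was tested, as they had at most 0.311 CPM. Of 17 other clade B serpins, 9 were tested, of which 3 rose and 1 fell. The log2 fold change was 3.39 for Serpinb9 (SE 0.33, edgeR adjusted p = 1.0e-04), which inhibits granzyme B, and 2.83 for Serpinb9b (SE 0.37, edgeR adjusted p = 5.0e-04). Serpinb1a, an inhibitor of neutrophil elastase, had -2.39 (SE 0.32, edgeR adjusted p = 6.0e-04). For Serpinb1b the log2 fold change was 1.05 (SE 0.29, edgeR adjusted p = 0.022), or 0.73 without LPS replicate 2 and 0.62 with scaling by library size, neither of which was a DEG. It was also no DEG without either Control library (edgeR adjusted p = 0.093 and 0.10, over the alternatives 2.6e-04 to 0.11). The genes of the groups Serpinb1, Serpinb6 and Serpinb9 are close copies, between which reads can be shared.

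Of 16 ADAM and ADAMTS proteinases, 8 were tested, with 3 up-regulated and 0 down-regulated DEGs. Adamts4, an aggrecanase, had 0 and 1.03 CPM in Control, 40.1 and 22.7 in LPS, 5.56 and 3.94 in AGE+LPS, and 15.1 and 19.8 in FruArg+LPS. No library of Control or AGE+LPS reached the lowest of the other groups. Its log2 fold change after LPS was 5.39 (SE 0.57, edgeR adjusted p = 1.7e-04), or 10.85 without Control replicate 2, which leaves a Control library at 0 counts. Adamts1 had 1.71 (SE 0.21, edgeR adjusted p = 3.2e-04). Adam17, the shedding protease of TNF, was at the limit with 1.00 (SE 0.20, edgeR adjusted p = 0.0054), and it was just below the fold minimum, and no DEG, with the block (1.00 when rounded, edgeR adjusted p = 1.1e-06, over the alternatives 1.1e-06 to 0.082). It was also no DEG with scaling by library size (0.58), with all 4 groups in one fit (0.96 without and 0.96 with the block), without LPS replicate 2 (0.89) and without Control replicate 1 (0.93). With the block Adamts10, named after its value was seen, was a down-regulated DEG (-1.04).

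The AP-1 and ETS factors, which regulate many metalloproteinase and urokinase genes, had the most DEGs. Of 19 genes 15 were tested, with 8 up-regulated and 3 down-regulated, against 22.6% of all genes. Of the up-regulated genes 2, Batf and Batf2, passed the filter only through the LPS libraries, and no call is drawn from their tests. The up-regulated factors that averaged 5 CPM or more over the compared libraries were led by Maff (2.84, SE 0.28, edgeR adjusted p = 1.2e-04), Atf3 (2.36, SE 0.23, edgeR adjusted p = 1.1e-04) and Junb (2.15, SE 0.36, edgeR adjusted p = 0.0018), which was 1.42 without LPS replicate 1. Etv5 (-2.81, SE 0.36, edgeR adjusted p = 4.9e-04), Batf3 (-1.40, SE 0.39, edgeR adjusted p = 0.024) and Fli1 (-1.32, SE 0.22, edgeR adjusted p = 0.0021) fell. Batf3 was no DEG without LPS replicate 2 (-0.96), without Control replicate 1 (-1.11) or with all 4 groups in one fit (-1.43, edgeR adjusted p = 0.075, range over all alternatives 6.0e-05 to 0.094). With the block Fos, named after its value was seen, was also a down-regulated DEG (-1.88).

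Between AGE+LPS and LPS, 46 of the 90 genes were tested and 1 was a DEG, while 0.796% of all 12317 genes were. This gene was Adamts4 (log2 fold change -2.71, SE 0.38, edgeR adjusted p = 0.042, over the alternatives 2.2e-22 to 0.048), and both AGE+LPS libraries were below both LPS libraries. With the block there were 10 DEGs, 5 up-regulated (Mmp10, Itgam, Batf3, Elk3 and Etv5) and 5 down-regulated (Adamts4, Serpinb1b, Serpinb1c, Serpinb9 and Batf2), against 9.73% of all genes, and 1 of them, Mmp10, was tested only because of its high group. These 9 further genes are named after their values were seen. Without AGE+LPS replicate 1 there were 3 DEGs (2.68% of all genes), without AGE+LPS replicate 2 there were 6 (4.72%), without LPS replicate 1 there were 7 (5.10%) and without LPS replicate 2 there were 3 (3.48%). Scaling by library size gave 1 up-regulated and 1 down-regulated DEG (1.09% of all genes), and DESeq2 gave 4 DEGs (4.47%).

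Serpinb9 illustrates the larger of these differences, with 285 and 529 CPM in LPS, 62.8 and 117 in AGE+LPS, and 69.9 and 189 in FruArg+LPS. Its LPS libraries were above all others, and replicate 2 was the higher one in every group. In FruArg+LPS against LPS, 45 of the 90 genes were tested and 0 were DEGs with edgeR, 10 had an unadjusted p below 0.05 and DESeq2 called 2 (Eno1 and Serpinb9). With the block there were 4, up-regulated Eno1 and Elk3 and down-regulated Serpinb1a and Serpinb9, against 6.35% of all genes. These are also named after their values were seen. Without FruArg+LPS replicate 2 there were 7 DEGs (11.8% of all genes) and without LPS replicate 1 there were 2 (1.61%).

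Mmp12, Mmp13 and Mmp8 lie in a cluster of 10 metalloproteinase genes on chromosome 9 between 7272514 and 7699585 (GRCm38). Of the other 7 genes of the cluster, Mmp1a, Mmp1b, Mmp3, Mmp7 and Mmp20 had 0 counts in every library and Mmp27 had 2 counts in all. Mmp10, stromelysin 2, lies between Mmp12 and Mmp8 and had 1 and 1 counts in Control, 3 and 5 in LPS, 16 and 24 in AGE+LPS, and 6 and 11 in FruArg+LPS. Its co-treated libraries were all above those of Control and LPS in counts and in CPM. Mmp10 passed the filter in AGE+LPS against LPS only through the AGE+LPS libraries, and it was not tested in LPS against Control or in FruArg+LPS against LPS. In AGE+LPS against LPS the log2 fold change of Mmp10 with the block was 2.80 (SE 0.58) and without it 2.77 (SE 0.57), and no call is drawn from these fits.

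**Figure D3:**
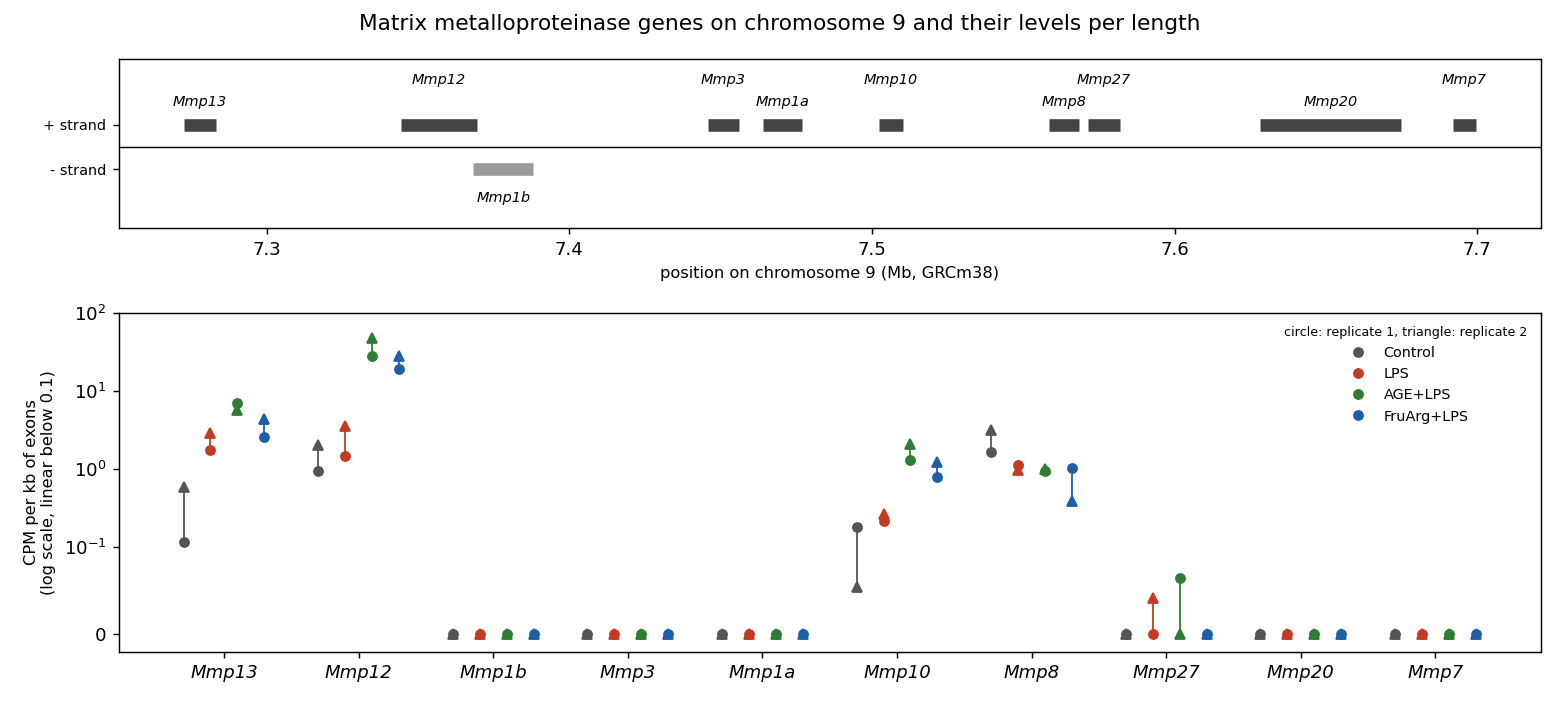
Metalloproteinase genes on chromosome 9 by position and strand (upper panel, Mb of GRCm38) and their levels in each library as CPM per kb of merged exons (lower panel, logarithmic axis that is linear below 0.1), with circles for replicate 1 and triangles for replicate 2. Mmp13, Mmp12, Mmp10 and Mmp8 had reads in every library, and 5 of the 10 genes had 0 counts in all libraries.

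The 250 bases before the start of each member in RefSeq (GRCm38.p6) were searched for motifs on both strands. Of the 10 members 8 had an entry, with 10 windows, and Mmp9 and Plau had none. The letters were TGAGTCA for AP-1, AGGAAG for ETS, TTGCNNAA for C/EBP and TATAAA for the TATA box, with the NF-kB motif by name. TGAGTCA was found in windows of Mmp12, Mmp13 and Plaur, and in 4.46% of all 32851 windows of this length. AGGAAG was found for 6 members (29.5% of all windows), TTGCNNAA for 4 (9.56%), TATAAA for 2 (12.4%) and the NF-kB motif for 0 (3.90%). A match describes the letters of a window and not a bound site. Shown are the windows with TGAGTCA and that of Serpinb2, with all matches of the 4 spelled motifs in capitals. All are on the plus strand and hold no annotated exon base. They lie at chr9:7347124-7347373 for Mmp12 (before the downstream of its 2 RefSeq starts, inside the annotated span of the gene), chr9:7272264-7272513 for Mmp13, chr7:24462233-24462482 for Plaur and chr1:107511173-107511422 for Serpinb2 (before the upstream of its 2 starts).
Mmp12: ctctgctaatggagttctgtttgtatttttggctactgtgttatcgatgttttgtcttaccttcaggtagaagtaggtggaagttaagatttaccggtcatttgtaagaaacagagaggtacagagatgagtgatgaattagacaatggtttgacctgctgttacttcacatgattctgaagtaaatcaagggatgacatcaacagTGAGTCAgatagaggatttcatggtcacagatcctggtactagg
Mmp13: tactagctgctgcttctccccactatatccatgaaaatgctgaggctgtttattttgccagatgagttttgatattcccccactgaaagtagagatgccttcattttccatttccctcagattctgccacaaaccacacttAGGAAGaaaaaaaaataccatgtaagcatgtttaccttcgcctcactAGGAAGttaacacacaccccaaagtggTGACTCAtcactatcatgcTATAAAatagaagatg
Plaur: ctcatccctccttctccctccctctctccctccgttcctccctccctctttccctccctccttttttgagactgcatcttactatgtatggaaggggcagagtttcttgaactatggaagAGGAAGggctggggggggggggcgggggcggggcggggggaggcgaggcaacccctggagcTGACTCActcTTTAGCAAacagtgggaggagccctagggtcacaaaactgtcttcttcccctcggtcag
Serpinb2: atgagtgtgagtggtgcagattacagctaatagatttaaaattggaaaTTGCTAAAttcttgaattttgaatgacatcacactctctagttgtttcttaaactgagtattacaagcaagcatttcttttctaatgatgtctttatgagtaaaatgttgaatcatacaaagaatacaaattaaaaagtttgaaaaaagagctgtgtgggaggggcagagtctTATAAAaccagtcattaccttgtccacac

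The match to TGAGTCA or its complement TGACTCA began 44 bases before the start of Mmp12, 35 before that of Mmp13 and 69 before that of Plaur. In Mmp13 AGGAAG began 62 and 109 bases before the start, and in Serpinb2 TATAAA began 29 bases before it. In the window of Plaur, matches to AP-1 and C/EBP lay 3 bases apart without overlap.

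The genes whose levels were most like those of Serpinb2 over the 8 libraries, by Pearson r of log2(CPM + 1) among 10005 genes with a mean of at least 5 CPM, were Csf2rb (0.972), Tcim (0.964), Clint1 (0.963), Creg2 (0.962) and Anxa6 (0.961). Csf2rb, the shared receptor subunit for GM-CSF, IL-3 and IL-5, had 82.4 and 60.1 CPM in Control, 78.5 and 79.8 in LPS, 171 and 161 in AGE+LPS, and 109 and 124 in FruArg+LPS. AGE+LPS was highest and FruArg+LPS next, as for Serpinb2, whereas Control and LPS overlapped. Most like Mmp12 were Slco4a1 (0.982), Nup88 (0.978), Pdxdc1 (0.971), Srprb (0.969) and Sel1l3 (0.965). Slco4a1, an organic anion transporter, had 89.6 and 124 CPM in Control, 118 and 145 in LPS, 291 and 304 in AGE+LPS, and 282 and 242 in FruArg+LPS. These correlations are over 8 libraries that form 4 groups and 2 lanes, and they rest mostly on the difference between the co-treated and the other libraries.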

How the data were processed

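Poly(A) RNA of 8 BV-2 libraries was analysed from the read counts per gene that the authors deposited, made with featureCounts on GRCm38 (versions not stated in the labels). All 8 columns were used and 0 were not used. Of 46078 genes, 45229 were matched to GENCODE M21 by identifier, and promoters came from RefSeq. Counts were normalised by TMM and each pair of groups was fitted in edgeR 4.0.16 (filterByExpr, quasi-likelihood F-test) under R 4.3.3, with DESeq2 1.42.0 as an alternative. The standard error is the absolute log2 fold change divided by the root of F. Tables and figures were made with Python 3.11.15 and matplotlib 3.10.9. The fits were tested on simulated data. The members and lists were chosen with earlier results of these data known.

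Replicate numbers go with the lane in the column names. Deviations of same-numbered libraries from their group means correlated over 12873 genes in all pairs of groups, with Pearson r from 0.291 (FruArg+LPS with Control) up to 0.679 (AGE+LPS with LPS), so the numbers pair the libraries, and the replicate block is given as an alternative. Counts of replicates differed by more than counting error (chi-square per degree of freedom 12.6 in Control, 45.3 in LPS, 26.8 in AGE+LPS and 24.9 in FruArg+LPS).

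The 6 lists were other matrix metalloproteinases, metalloproteinase inhibitors, plasminogen activation, clade B serpins, ADAM and ADAMTS proteinases, and AP-1 and ETS factors. Per list and direction, up to 3 DEGs with the largest fold change and a mean of at least 5 CPM were named. Marker lists covered microglia and macrophages, neutrophils, fibroblasts, endothelial cells, astrocytes, neurons, oligodendrocytes and keratinocytes. Alternatives were DESeq2, RLE size factors, library size scaling, a looser filter (1 count in all 4 libraries summed) and a stricter one (10 counts in each), calls without a fold minimum, all 4 groups in one fit, the replicate block in both kinds of fit, and leaving out each library in turn.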

Additional observations from a re-analysis of the deposited data

How the results depend on the processing

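Of the counts of DEGs, those of members in FruArg+LPS against Control and of list genes in LPS against Control stayed within 1.5 times under all alternatives. The counts here are of all genes tested, so they include genes that passed the filter only through their high group. Among these were the members Mmp9, Serpinb2 and Mmp13 and the list genes Mmp10, Batf and Batf2, each in the comparisons where this held. With DESeq2 there were 2 members in FruArg+LPS against LPS (0 before), 4 list genes in AGE+LPS against LPS (1 before) and 2 list genes in FruArg+LPS against LPS (0 before). Library size scaling, which moved the median log2 fold change of all genes in LPS against Control from 0.02 to -0.40, gave 2 list genes in AGE+LPS against LPS. A filter of at least 1 count gave 5 members in LPS against Control (3 before), 3 members in FruArg+LPS against LPS, and 11 and 4 list genes in AGE+LPS and FruArg+LPS against LPS. All 4 groups in one fit gave 4 list genes in AGE+LPS against LPS. The replicate block gave 4 members in FruArg+LPS against LPS, and 10 and 4 list genes in AGE+LPS and FruArg+LPS against LPS, and beyond the genes named with it above it changed no other call of a member or list gene. The replicate block with all 4 groups in one fit gave 5 members in LPS against Control, 4 members in FruArg+LPS against LPS, and 9 and 5 list genes in AGE+LPS and FruArg+LPS against LPS.

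With 1 library left out, where the lone library was assumed to vary like the others, there were 4 to 5 members in LPS against Control, 1 to 3 members in FruArg+LPS against LPS, 3 to 7 list genes in AGE+LPS against LPS and 0 to 7 in FruArg+LPS against LPS. Log2 fold changes then ranged from -0.0935 to 1.44 for Mmp12 in LPS against Control, from -0.13 to 0.48 for Timp2 and from -0.12 to 0.39 for Plau in FruArg+LPS against LPS. Of all log2 fold changes, 195 stayed the same with a library left out (the same side of the threshold or, with no test, a shift within the replicate spread), 9 lost their call, 28 gained one, 4 were reversed and 3 with no test moved. With all libraries 446 stayed the same, 6 lost their call, 66 gained one and 1 with no test moved. The counts rest on 2 libraries per group of 1 cell line, and the cause of the difference between the replicate numbers was not tested.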
